A study of Mus musculus with 6 samples.

Results

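The transcripts described here encode the vacuolar proton pump (V-ATPase), the lysosomal membrane proteins LAMP1 and LAMP2, the cathepsins and the core autophagy proteins of mGLUTag cells. A probe was taken as a member when its symbol began with Atp6v, Atp6ap, or Atg and a digit, when it was Cts followed by 1 letter, or when it was Lamp1, Lamp2, Map1lc3a, Map1lc3b, Gabarap, Sqstm1 or Tfeb. This gave 103 probes for 61 genes out of 45281 probes for 28902 genes on the array. They comprised 12 V1 subunits, 8 V0 subunits, 2 accessory subunits of the pump, 2 lysosomal membrane proteins, 18 cathepsins, 15 ATG genes, and a group of 4 genes for ATG8 proteins and an autophagy receptor. No probe carried the symbol Tfeb.

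mGLUTag is a murine line of intestinal L-cells, the enteroendocrine cells that secrete GLP-1. Both groups were cultures of this single line that had been starved in low serum, exposed to forskolin to align their circadian clocks and returned to growth medium, and the sources used here name no other agent. RNA was collected at 4 h (3 arrays) and 16 h (3 arrays), taken by the study for the highest and lowest Bmal1 mRNA. It was reverse-transcribed and analysed on a mouse WG-6 V2 Illumina BeadChip, 1 array per sample. The comparison addresses which transcripts differ between these time points, and it holds no unsynchronized cells. The labels number the samples but do not say that they came from separate cultures, so p-values measure the spread between these samples, which may be technical.

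The V-ATPase is a rotary pump in which the cytosolic V1 sector hydrolyses ATP and the membrane-embedded V0 sector moves protons into lysosomes, endosomes and secretory granules. The acid that it provides activates most cathepsins, the proteases that degrade lysosomal cargo, and in endocrine cells it also supports prohormone processing and cargo storage in granules. In autophagy, ATG proteins build a double membrane around cytoplasm, ATG8 proteins of the LC3 and GABARAP families are attached to it, and the finished vesicle fuses with the lysosome. The transcription factor TFEB drives many of these genes through CLEAR elements, which contain an E-box, the motif that is also bound by the clock proteins BMAL1 and CLOCK.

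A probe counted as detected when its deposited intensity exceeded the noise limit of the array (9.2 to 14 intensity units) on at least 3 of the 6 arrays, and each array had 16964 to 17847 probes above its limit. The mean intensity of an array lay between 216 and 354, and all 3 arrays of 4 h exceeded those of 16 h. Intensities were normalized between arrays, and each log2 change (4 h minus 16 h) is therefore a difference from what the rest of the array did. Probes for 18S ribosomal RNA split the arrays across the time points: their mean log2 deposited intensity was 8.57, 10.78 and 8.82 on 4 h replicates 1 and 3 and 16 h replicate 1, and 5.66, 6.86 and 5.41 on 4 h replicate 2 and 16 h replicates 2 and 3. Of 11 L-cell marker genes 8 were detected, with Gcg, which encodes proglucagon, at deposited intensities of 19565 ± 1363 at 4 h and 11924 ± 894 at 16 h (mean ± SD). After normalization 6 of the 8 had log2 changes above 0 and 2 below. The change was 0.35 ± 0.0815 (SE) for Gcg, 0.77 ± 0.162 for Insl5 and -0.35 ± 0.120 for Neurod1 (limma adjusted p = 0.461, 0.369 and 0.800). None of 6 leukocyte markers was detected, and of 4 fibroblast markers only Col1a1 was, at 27.8 ± 12.8 at 4 h and 20.9 ± 1.73 at 16 h.

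Of the 61 member genes, 42 were detected, 40 of them on all arrays, and the other 19 lay between -8.7 and 15.8 intensity units. A gene was represented by its brightest probe. Detected genes comprised 9 of 12 V1 subunits, 6 of 8 V0 subunits, both accessory subunits, both LAMP genes, 6 of 18 cathepsins, 13 of 15 ATG genes and all 4 genes of the ATG8 and receptor group. The undetected pump subunits were Atp6v1b1, Atp6v1e2, Atp6v1g3, Atp6v0a4 and Atp6v0d2, isoforms known mainly from kidney, testis, osteoclasts and other specialised cells. The undetected cathepsins were C, E, G, H, J, K, M, O, Q, R, S and W, by the probes that carry these symbols, and they include the leukocyte proteases Ctsg, Ctss and Ctsw, the osteoclast protease Ctsk and the placental proteases Ctsj, Ctsm, Ctsq and Ctsr. For Ctse, a further probe under the older symbol C920004c08rik, matched through a RefSeq synonym, lay between 490.0 and 1007 intensity units, so whether Ctse is detected was not settled. Atg4a and Atg4c, which encode ATG8-processing proteases, were also undetected.

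Of the 4 genes used to check that lysosomes, pump and autophagy are represented, 3 were bright on every array. Lamp1, a heavily glycosylated protein of the lysosomal membrane, had deposited intensities of 1525, 1326 and 1888 (4 h) against 1207, 1488 and 1051 (16 h). Atp6v1a, the catalytic subunit of the pump, had intensities of 624, 520.2 and 561 (4 h) against 363, 394 and 403 (16 h). Sqstm1, the receptor that links ubiquitinated cargo to the autophagosome, had intensities of 2571, 2129 and 3501 (4 h) against 2371, 2418 and 1861 (16 h). All of these values were far above the noise limit, and the 3 arrays of 4 h were higher than those of 16 h for Atp6v1a alone. Ctsd, the main aspartic protease of lysosomes, did not serve as a marker here, since its single probe gave 15.8, 27.0 and 7.50 (4 h) against 6.30, 26.9 and 7.70 (16 h) and was above the noise limit on 3 arrays only.

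The deposited table holds no probe sequences, so the sequences given here are from the promoters of the members, 300-base windows from 250 bases before to 50 bases after the annotated gene start (RefSeq, GRCm38.p6). The table held 55 such windows for 49 of these genes, Tfeb included. Both strands were searched for the E-box CACGTG, a palindrome, and for TCACGTGA, the core of the CLEAR element, which contains the E-box. The E-box occurred in 12 of 55 member promoters (21.8%) and in 2349 of 32851 promoters of the whole table (7.15%). The CLEAR core occurred in 6 member promoters (10.9%) and in 320 of all promoters (0.974%), whereas the full CLEAR palindrome occurred in 0 member promoters and in 107 of all (0.326%). All 12 genes with an E-box were detected, Atg3, Atg5, Atg7, Atp6v0b, Atp6v0d1, Atp6v0e, Atp6v1a, Ctsa, Ctsd, Ctsf, Ctsl and Lamp1, and none of the 15 undetected members with a promoter in the table had one. The E-box shares of all detected and all undetected genes were not calculated, so this split has no background beside it. The following windows are those that hold the CLEAR core, with the E-box in capitals and each read 5′ to 3′ on the strand of the gene.
Atg3, chr16:45158747-45158774, plus strand: gagagtcgagtCACGTGaggccttaggt
Atp6v0d1, chr8:105566051-105566078, minus strand: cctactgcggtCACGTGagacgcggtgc
Atp6v0e, chr17:26676388-26676415, plus strand: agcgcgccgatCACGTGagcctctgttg
Atp6v1a, chr16:44139374-44139401, minus strand: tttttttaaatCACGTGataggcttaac
Ctsa, chr2:164833750-164833777, plus strand: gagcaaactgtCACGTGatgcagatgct
Ctsa, chr2:164833767-164833794, plus strand: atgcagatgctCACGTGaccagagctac
Ctsd, chr7:142387909-142387936, minus strand: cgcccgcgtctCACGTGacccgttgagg

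The E-box of Atp6v0e began 3 bases after the gene start, that of Atp6v0d1 3 bases before it and that of Atp6v1a 131 bases before it. Lamp1 had 4 E-boxes within 61 bases upstream of its start, of which the one nearest the start lies in chr8:13159135-13159162 (plus strand) as cgtgaccacatCACGTGcggaacggagc. No match with these letters was found in the promoters of Atg2a, Atg16l2 and Map1lc3b, whose values are given further on, and Atp6v0a2 was not analysed here for motifs. Among detected members with a promoter, the 12 with an E-box had a median log2 change of -0.03 (5 above and 7 below 0), and the 21 without one had a median of -0.09 (7 above and 14 below 0). These letters are a description of the windows and do not show that a factor binds there.

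No member probe passed the adjusted threshold of 0.05 in the limma model over all probes, in which 4 of 45281 probes did (0.00883%). At an unadjusted p under 0.05, 1 member gene was higher at 4 h and 3 were lower, out of 42 detected. The same threshold was met by 5.88% of the 11730 detected genes in the higher direction and by 5.37% in the lower direction, so the members' shares in this fit were near the background. For 3 member genes every 4 h array was above every 16 h array, and for 6 every one was below, against 6.52% and 5.85% of all detected genes. Overlap between time points refers to the normalized log2 intensities unless the deposited scale is named. Without 4 h replicate 3, 1 member gene was higher and 10 were lower at this threshold, against 6.35% and 6.21% of all detected genes in that fit. Without 16 h replicate 1, 1 was higher and 6 were lower, against 7.02% and 8.24%. In these data, a lower level could reflect fewer cells that express a gene or less RNA per cell, which cannot be told apart.

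**Figure D1:**
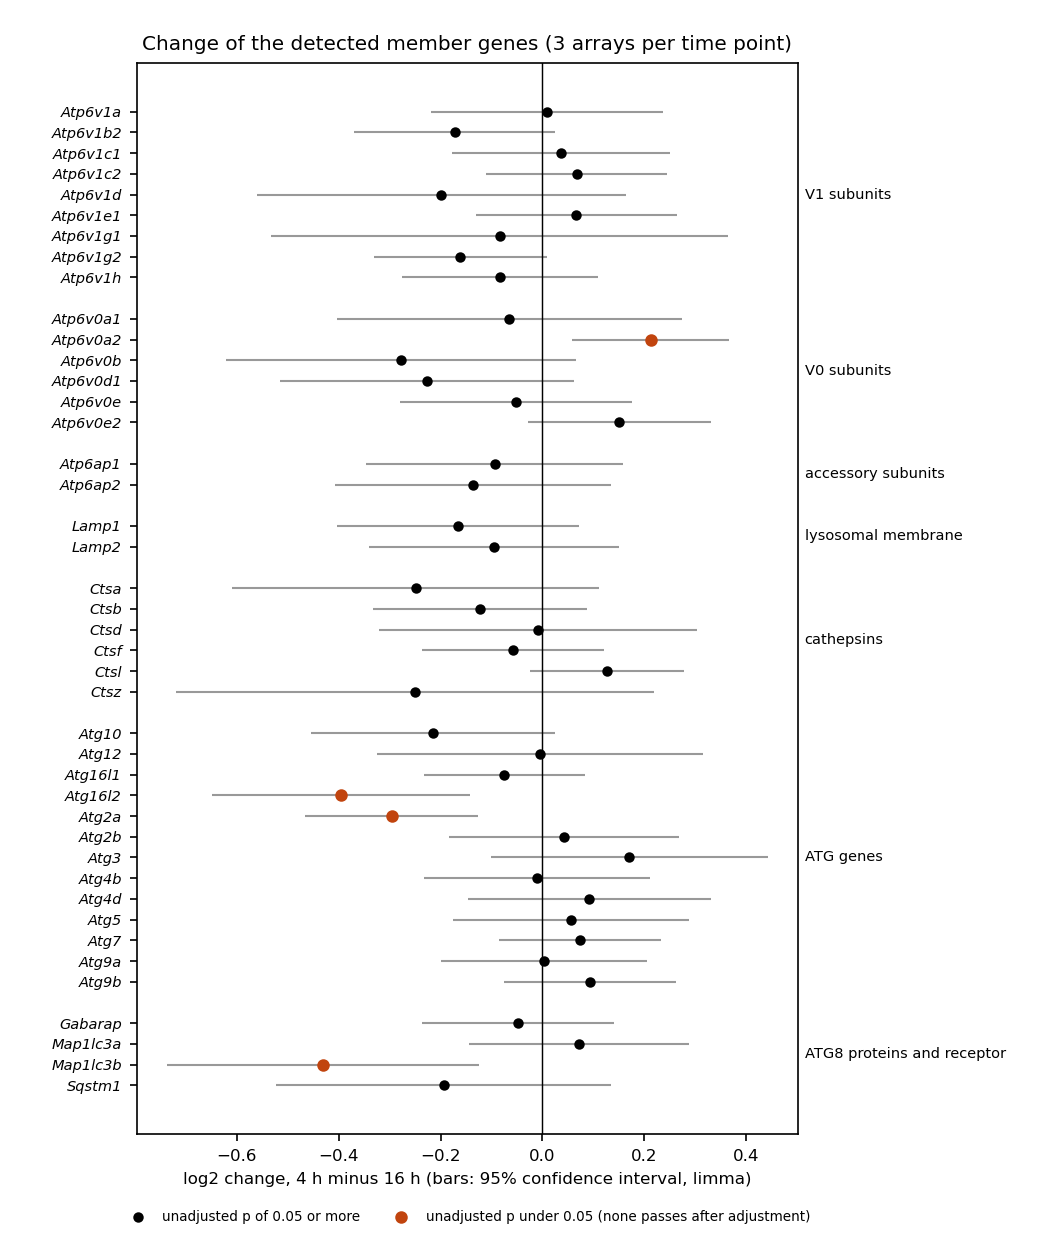
Log2 change (4 h minus 16 h, horizontal axis) of each of the 42 detected member genes in 7 role groups, with 95% confidence intervals from limma. Red points mark the 4 genes with an unadjusted p under 0.05, of which Atp6v0a2 lies to the right of 0 and Atg2a, Atg16l2 and Map1lc3b lie to the left.

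By sign alone, 15 detected members were above 0 and 27 below, beside 5869 and 5861 of the 11730 detected genes. The median log2 change was -0.06 over the 42 members and 0.0002 over all 11730 detected genes, and the median within-time SD was 0.15 for the members and 0.14 for all detected genes. The median half-width of the 95% confidence intervals was 0.23, and no interval of a detected member extended beyond 0.74 on the log2 scale in either direction. In the deposited values the 4 h mean exceeded the 16 h mean for all 42 members, by a median of 0.42 on the log2 scale, below the 0.54 of all detected genes. Without normalization between arrays, 28 member genes reached an unadjusted p under 0.05, all of them higher at 4 h, against 62.3% of all detected genes higher and 0.0682% lower. With each array scaled to its median 20 did, also all higher, against 49.3% higher and 0.205% lower. The direction of a member's change thus holds only within the array, against the other probes.

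**Figure D2:**
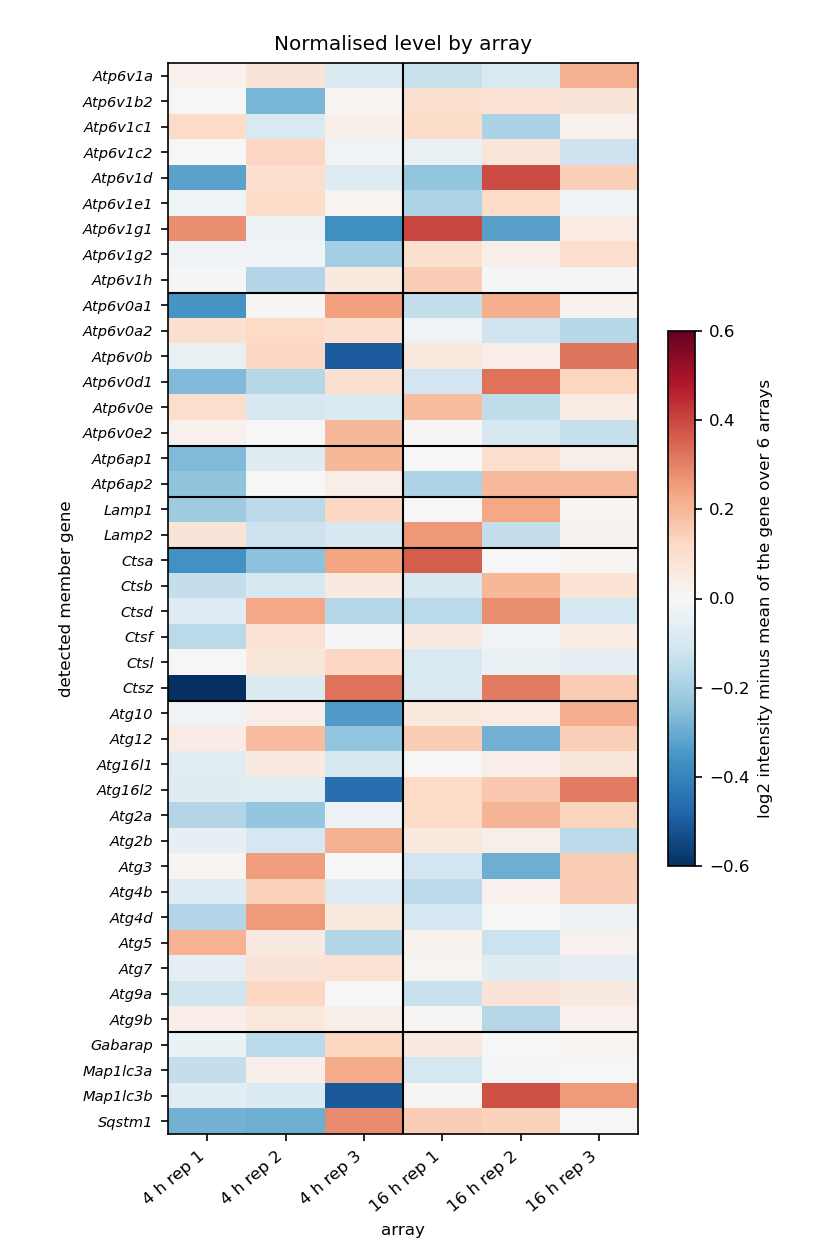
Normalised log2 intensity of each detected member gene on the 6 arrays, shown as the difference from the mean of the gene (colour scale from -0.6 to 0.6). Columns 1 to 3 are 4 h and columns 4 to 6 are 16 h. In 9 of the 42 rows all 4 h values lie on one side of all 16 h values, and the pump gene Atp6v1g1 differs more among the arrays of a time point than between the time points.

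V1 subunits had a median log2 change of -0.08 over 9 detected genes, 4 above and 5 below 0, and none reached an unadjusted p under 0.05. Relative to the shift shared by all genes, this median was 0.0062 with median scaling, and it was 0.03 without 4 h replicate 3, so that its sign was not stable. The catalytic subunit Atp6v1a had normalized log2 intensities of 9.10, 9.15 and 8.99 (4 h) against 8.95, 8.99 and 9.29 (16 h), a change of 0.01 ± 0.101 (SE; limma adjusted p = 0.998). Its promoter holds the CLEAR core, and its 4 h values lay within the range of those of 16 h. Atp6v1b2, the nucleotide-binding B subunit, stood at 10.88, 10.61 and 10.90 (4 h) against 10.98, 10.97 and 10.96 (16 h), with all 3 values of 4 h below those of 16 h and a change of -0.17 ± 0.0874 (limma adjusted p = 0.920) that was -0.08 without 4 h replicate 2. Atp6v1g2, a peripheral stalk subunit enriched in neural cells, did not overlap either, at 8.50, 8.50 and 8.32 (4 h) against 8.62, 8.56 and 8.62 (16 h) (-0.16 ± 0.0749, limma adjusted p = 0.919).

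The remaining V1 genes overlapped between time points on the normalized scale. Atp6v1d, a subunit of the central rotor, measured 9.22, 9.64 and 9.46 (4 h) against 9.30, 9.93 and 9.68 (16 h). Its change of -0.20 ± 0.160 came with the lowest values on 4 h replicate 1 and 16 h replicate 1 and the highest on 16 h replicate 2, and it was -0.05 without 16 h replicate 2 and -0.37 without 16 h replicate 1. Atp6v1c1, the C subunit that helps to join V1 to V0, was at 11.07, 10.86 and 10.98 (4 h) against 11.06, 10.76 and 10.97 (16 h) (0.04 ± 0.0948), and its second detected probe gave -0.01. Its isoform Atp6v1c2 was dim, with deposited intensities of 31.7, 28.2 and 25.3 (4 h) against 17.3, 22.3 and 11 (16 h), which did not overlap. After normalization it was at 6.40, 6.53 and 6.38 (4 h) against 6.36, 6.48 and 6.28 (16 h), which did, and the log2 change was 0.07 ± 0.0785. The stalk subunit Atp6v1e1 was at 12.73, 12.86 and 12.77 (4 h) against 12.57, 12.86 and 12.73 (16 h) (0.07 ± 0.0875). For Atp6v1g1 and Atp6v1h the log2 changes were -0.08 and -0.08, with 95% confidence intervals of -0.53 to 0.36 and -0.28 to 0.11.

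V0 subunits had a median of -0.06 over 6 detected genes (0.04 relative to the shared shift with median scaling). The only member gene that was higher at 4 h at an unadjusted p under 0.05 was Atp6v0a2, an isoform of the a subunit that carries the proton path and is known from Golgi and endosomal membranes. Its deposited intensities were 282, 215 and 273 (4 h) against 163, 151 and 114 (16 h). After normalization they were 8.11, 8.13 and 8.11 (4 h) against 7.98, 7.89 and 7.84 (16 h). Every 4 h array was above every 16 h array on both scales, and the SD among the normalized 4 h values was 0.01. The change was 0.21 ± 0.0679 (1.16-fold; limma unadjusted p = 0.0123, adjusted p = 0.739), and the second, dimmer probe gave 0.15 ± 0.0777 at 6.73, 6.82 and 6.84 (4 h) against 6.65, 6.76 and 6.54 (16 h). Within the arrays of high 18S signal the change was 0.12, and within those of low 18S signal it was 0.27. In limma the unadjusted p was 0.103 with an offset of 16, 0.0608 with a filter on probes below the noise limit and 0.110 with trended robust variances, and 0 member genes were higher at the threshold under these settings.

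Other V0 genes did not reach an unadjusted p under 0.05. Atp6v0e2, a small e subunit isoform, was at 10.04, 10.02 and 10.22 (4 h) against 10.03, 9.92 and 9.88 (16 h), a change of 0.15 ± 0.0795 in which 16 h replicate 1 lay just within the range of 4 h. Atp6v0b, a proteolipid of the rotating ring, was at 11.62, 11.79 and 11.16 (4 h) against 11.72, 11.70 and 11.98 (16 h), and its change of -0.28 ± 0.151 was -0.10 without 4 h replicate 3. Atp6v0d1, which couples the ring to the central stalk and has the CLEAR core in its promoter, was at 10.39, 10.48 and 10.75 (4 h) against 10.54, 10.98 and 10.78 (16 h) (-0.23 ± 0.127, limma adjusted p = 0.924). All 4 of its probes were below 0, between -0.23 and -0.04. Atp6v0e, the other e subunit, was at 12.29, 12.08 and 12.10 (4 h) against 12.37, 12.03 and 12.23 (16 h) (-0.05 ± 0.10), with 16 h replicate 1 the highest and 16 h replicate 2 the lowest array. Atp6v0a1, the a isoform prominent in neurons and endocrine cells, had a log2 change of -0.06 ± 0.149 (95% confidence interval -0.40 to 0.27).

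The accessory subunits Atp6ap1, which assists pump assembly and targeting, and Atp6ap2, also known as the prorenin receptor, had log2 changes of -0.09 ± 0.111 and -0.14 ± 0.120, and their time points overlapped. Of the 4 detected probes of Atp6ap2, the brightest diverged from the 3 dimmer ones, which followed one another. The brightest probe was at 12.64, 12.88 and 12.92 (4 h) against 12.70, 13.08 and 13.08 (16 h). A dimmer one, ILMN_2628657, was at 9.80, 9.64 and 9.80 (4 h) against 10.21, 9.58 and 9.72 (16 h). Each of the 3 dimmer probes was higher on every array of high 18S signal than on every array of low 18S signal (mean log2 intensities 9.94 against 9.65, 10.11 against 9.86 and 9.97 against 9.66). The brightest probe had a lower mean on the arrays of high 18S signal (12.75 against 13.01), but these arrays overlapped, since 4 h replicate 3, with the highest 18S signal, was at 12.92 and 4 h replicate 2, with low signal, at 12.88. Correlations over the 6 arrays ran from 0.93 to 0.98 among the 3 dimmer probes and from -0.88 to -0.66 between these and the brightest, as a description of probes that share arrays. The part of the 18S signal in this divergence was not tested.

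Lamp1 and Lamp2 had a median of -0.13. Lamp1 was at 10.32, 10.37 and 10.65 (4 h) against 10.53, 10.76 and 10.54 (16 h), a change of -0.17 ± 0.105 (limma adjusted p = 0.946) with overlapping time points, and the change was -0.27 without 4 h replicate 3 and -0.09 without 16 h replicate 2. Lamp2, the lysosomal membrane protein required for autophagosome clearance and chaperone-mediated autophagy, was at 11.01, 10.81 and 10.84 (4 h) against 11.20, 10.79 and 10.96 (16 h) for its brightest probe (-0.09 ± 0.108, limma adjusted p = 0.966). All 6 detected Lamp2 probes were below 0, between -0.17 and -0.07, but they varied over the arrays in different ways. The probes ILMN_1217454 and ILMN_2605666 were lower on every array of high 18S signal than on every array of low 18S signal (means 9.63 against 9.94 and 8.99 against 9.29). ILMN_3074259 and ILMN_3153207 had higher means there (11.02 against 10.85 and 10.55 against 10.26), but 4 h replicate 3, at 10.84 and 10.40, was below 16 h replicate 3 of low 18S signal, at 10.96 and 10.45. Over all 14 members with more than 1 detected probe, the sign of the change agreed between probes for 12 and differed for 2, Atp6ap2 and Atp6v1c1.

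**Figure D3:**
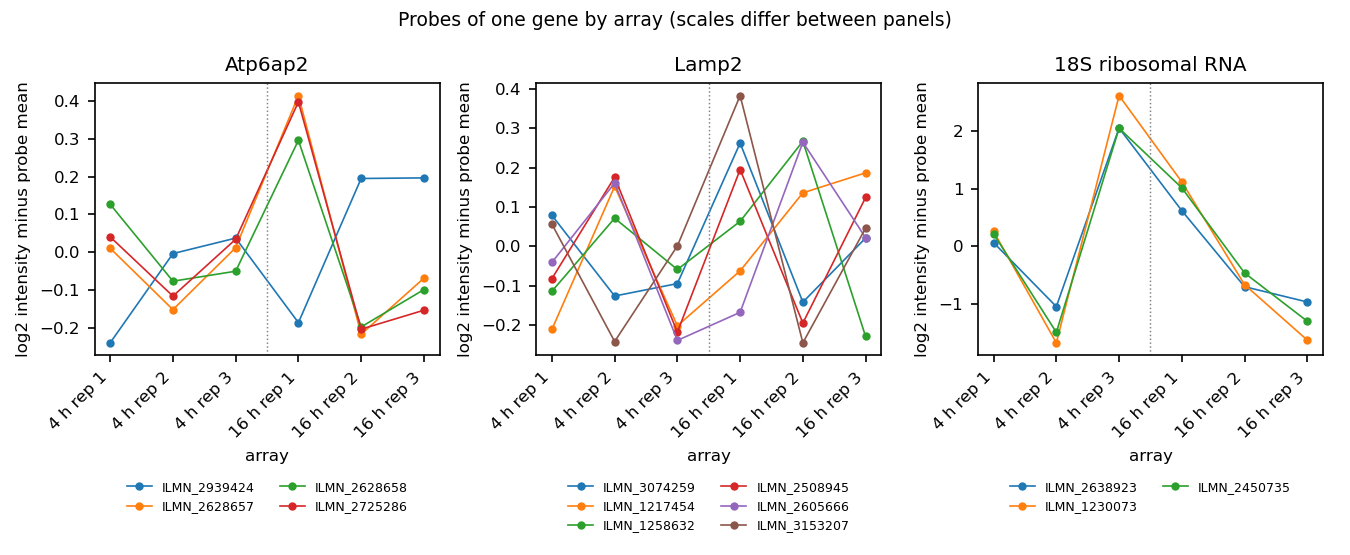
Normalised log2 intensity minus the mean of the probe (vertical axis) on the 6 arrays (horizontal axis) for the detected probes of Atp6ap2 and Lamp2 and for 18S ribosomal RNA, with lines joining the values of 1 probe. The brightest Atp6ap2 probe, ILMN_2939424, is lowest on 4 h replicate 1 and 16 h replicate 1, whereas the other 3 peak on 16 h replicate 1, an array with high 18S signal.

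The 6 detected cathepsins had a median of -0.09, 1 above and 5 below 0, and no representative probe reached an unadjusted p under 0.05. Without 4 h replicate 1 the median was 0.0012. Ctsl, a cysteine endopeptidase that also contributes to prohormone processing, was dim at 22.8, 18.8 and 28.4 (4 h) against 10.1, 12.4 and 9.70 (16 h) intensity units. After normalization it was 6.30, 6.37 and 6.42 (4 h) against 6.21, 6.26 and 6.24 (16 h), with every 4 h value above every 16 h value, and the change of 0.13 ± 0.0668 did not pass (limma adjusted p = 0.924). The change was 0.22 with an offset of 16 and 0.61 without background correction, and with median scaling it was 0.20, where all detected genes shared a shift of 0.29. Ctsd had log2 values of 6.21, 6.51 and 6.11 (4 h) against 6.12, 6.56 and 6.18 (16 h) and a change of -0.01 ± 0.138, at a level near the noise limit.

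Ctsz, the carboxypeptidase cathepsin Z, had 2 probes of similar brightness. Its representative probe was at 8.72, 9.25 and 9.66 (4 h) against 9.25, 9.64 and 9.48 (16 h), a change of -0.25 ± 0.207 (limma adjusted p = 0.958) with overlap. The other probe, ILMN_2666007, was at 8.70, 9.23 and 9.28 (4 h) against 9.40, 9.65 and 9.52 (16 h), with every 4 h value below every 16 h value and a change of -0.45 ± 0.147 (limma unadjusted p = 0.0131, adjusted p = 0.742). On both probes 4 h replicate 1 was the lowest array, and without it the change of the representative probe was -0.01. Ctsa, the serine carboxypeptidase that protects beta-galactosidase and neuraminidase and whose promoter holds the CLEAR core at 2 places, was at 7.65, 7.77 and 8.25 (4 h) against 8.38, 8.01 and 8.02 (16 h) (-0.25 ± 0.159). Its change ranged from -0.13 without 4 h replicate 1 to -0.42 without 4 h replicate 3. Ctsb, a cysteine protease of broad specificity, was at 11.004, 11.05 and 11.20 (4 h) against 11.05, 11.35 and 11.23 (16 h) (-0.12 ± 0.0927), and the log2 change of Ctsf, a related protease, was -0.06 ± 0.0791.

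ATG genes had a median of 0.0034 over 13 detected genes, 7 above and 6 below 0. Of the 2 with an unadjusted p under 0.05, Atg2a encodes a lipid transfer protein that feeds the growing autophagosome. Its deposited intensities were 126, 82.9 and 137 (4 h) against 108, 119.6 and 88.4 (16 h). Its normalized log2 intensities were 7.27, 7.22 and 7.41 (4 h) against 7.56, 7.65 and 7.58 (16 h). The time points overlapped on the deposited scale and did not overlap after normalization, where all 4 h arrays were lower. The change was -0.30 ± 0.0751 (limma unadjusted p = 0.00343, adjusted p = 0.536), and the 2 other detected probes gave -0.13 and -0.09. The change was -0.46 without background correction, -0.21 within the arrays of high 18S signal and -0.40 within those of low. For its paralog Atg2b the log2 change was 0.04 ± 0.10.

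Atg16l2 encodes a relative of ATG16L1, the scaffold that directs ATG8 conjugation to the forming membrane. It had deposited intensities of 632, 506 and 461 (4 h) against 485, 528 and 469 (16 h). Normalized log2 intensities were 9.12, 9.12 and 8.73 (4 h) against 9.31, 9.35 and 9.50 (16 h), a change of -0.40 ± 0.112 (0.76-fold; limma unadjusted p = 0.00645, adjusted p = 0.648). Every 4 h array was below every 16 h array, and 4 h replicate 3, the array with the highest 18S signal, was the lowest. Without that array the change was -0.27, and it was -0.38 within the arrays of high and -0.31 within those of low 18S signal. For Atg16l1 itself it was -0.07 ± 0.0695.

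Other ATG genes were named by the size of their p within the group. Atg10, the E2-like enzyme that conjugates ATG12 to ATG5, was at 8.17, 8.24 and 7.86 (4 h) against 8.25, 8.25 and 8.41 (16 h), below 16 h on every 4 h array (-0.22 ± 0.106, limma adjusted p = 0.920). Its second probe gave -0.21 ± 0.0835 (limma unadjusted p = 0.0363, adjusted p = 0.889), so both probes were below 0 without passing adjustment. Without 4 h replicate 3 the change of the brighter probe was -0.10. Atg3, the E2-like enzyme for ATG8 proteins, was at 7.32, 7.56 and 7.31 (4 h) against 7.20, 7.02 and 7.46 (16 h) (0.17 ± 0.120; 0.29 without background correction), and its deposited intensities were 132, 123 and 122 (4 h) against 73.1, 56.5 and 77.6 (16 h). Atg9b, a lipid scramblase, was at 8.28, 8.30 and 8.27 (4 h) against 8.25, 8.07 and 8.26 (16 h), where 4 h was just above 16 h on all arrays (0.09 ± 0.0744, limma adjusted p = 0.957). Atg7, the E1-like enzyme of both conjugation systems, was above the noise limit on 3 arrays only, at 6.13, 6.26 and 6.27 (4 h) against 6.20, 6.11 and 6.13 (16 h) (0.07 ± 0.0705). The remaining detected genes Atg4b, Atg4d, Atg5, Atg9a and Atg12 had log2 changes of -0.01, 0.09, 0.06, 0.0034 and -0.0047, and their time points overlapped.

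Among the ATG8 proteins, Map1lc3b, the LC3 form most used as an autophagosome marker, was the 1 gene with an unadjusted p under 0.05. Its deposited intensities were 301, 222 and 192 (4 h) against 208, 296 and 209 (16 h), with almost equal means of 238 ± 56.2 and 238 ± 50.5 (SD). Its normalized log2 intensities were 8.18, 8.17 and 7.75 (4 h) against 8.26, 8.63 and 8.50 (16 h). Every 4 h array was lower than every 16 h array, and 4 h replicate 3 was the lowest of all. The change was -0.43 ± 0.135 (0.74-fold; limma unadjusted p = 0.0112, adjusted p = 0.726), with -0.29 within the arrays of high and -0.40 within those of low 18S signal. Without 4 h replicate 3 it was -0.29 as well, and without background correction the limma unadjusted p was 0.0613. The gene was thus as bright at 4 h as at 16 h on arrays on which 11306 of 11730 detected genes were brighter at 4 h.

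The other genes of this group overlapped between time points. Map1lc3a was at 8.56, 8.73 and 8.92 (4 h) against 8.60, 8.69 and 8.70 (16 h), a change of 0.07 ± 0.0956. Gabarap was at 12.28, 12.16 and 12.45 (4 h) against 12.37, 12.32 and 12.34 (16 h), a change of -0.05 ± 0.0834. Sqstm1 was at 11.03, 11.02 and 11.59 (4 h) against 11.46, 11.45 and 11.31 (16 h), with the highest value on 4 h replicate 3 and the 2 lowest on 4 h replicates 1 and 2, a change of -0.19 ± 0.145 (limma adjusted p = 0.954) that was -0.39 without 4 h replicate 3 and -0.09 without 4 h replicate 2. Whether the change of Map1lc3b differs from that of Map1lc3a or Gabarap was not tested.

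**Figure D4:**
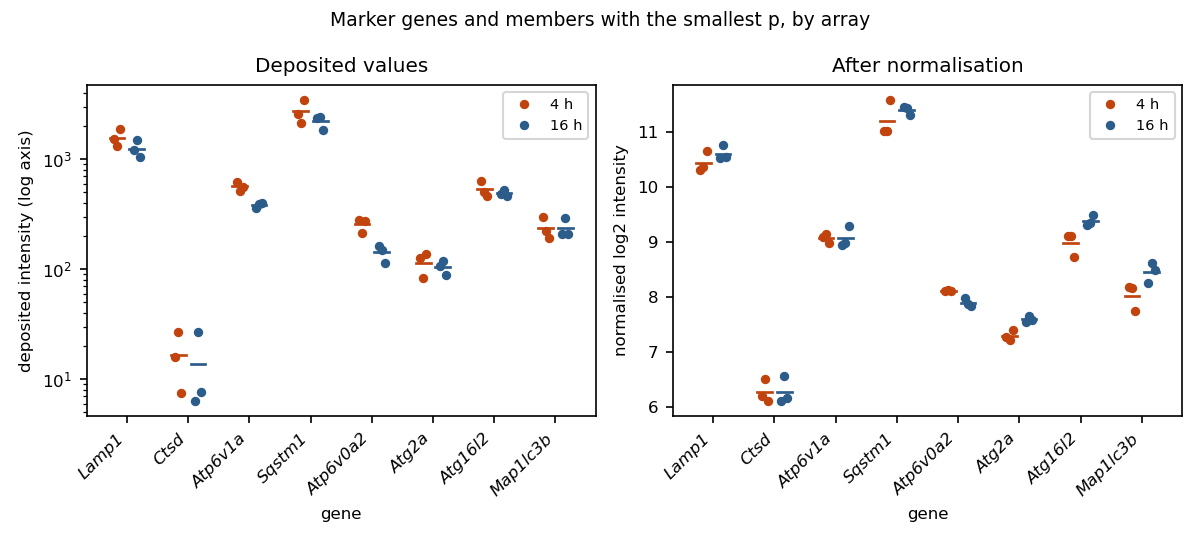
Deposited intensity (left, log axis) and normalised log2 intensity (right) on each array for the 4 marker genes and the 4 member genes with an unadjusted p under 0.05, with points for arrays and horizontal bars for means of 3 arrays. On the left the 2 time points of Map1lc3b have nearly equal means, and on the right its 4 h arrays lie below those of 16 h.

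The proton pump as a whole (17 detected genes of 22) had a median of -0.08 and the autophagy genes (17 of 19) a median of -0.0047, beside -0.09 for the cathepsins (0.0012 without 4 h replicate 1), and at an unadjusted p under 0.05 the pump held 1 higher gene, autophagy 3 lower genes and the cathepsins 0, against 5.88% of all detected genes higher and 5.37% lower. The ranges overlapped widely, from -0.28 to 0.21 for the pump, from -0.43 to 0.17 for autophagy and from -0.25 to 0.13 for cathepsins. These medians describe the lists and were not compared by a test.

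Other genes of the same pathways, outside the symbols above, were compared in the same fit, and none was called after adjustment. Their counts at an unadjusted p under 0.05 stand beside 5.88% of all detected genes higher and 5.37% lower at 4 h. Of 32 lysosomal hydrolases and activators 27 were detected, and 0 were higher and 4 lower at 4 h at an unadjusted p under 0.05, with a median of -0.05. The smallest p in each direction belonged to Ids, which degrades heparan and dermatan sulphate (0.25 ± 0.140, limma adjusted p = 0.924), and to Dpp7, a dipeptidyl peptidase (-0.42 ± 0.10, limma adjusted p = 0.496). Ids was at 12.95, 12.98 and 13.40 (4 h) against 12.65, 13.06 and 12.87 (16 h), overlapping and highest on 4 h replicate 3. Changes of single genes with an array left out are given for members only. Of 19 lysosomal membrane and transport genes 18 were detected, and 1 was higher and 6 were lower, with a median of -0.08. They included Ostm1 (0.18 ± 0.0747) and its partner, the chloride-proton exchanger Clcn7 (-0.32 ± 0.0990, limma adjusted p = 0.726). Of 10 pump assembly genes 9 were detected, with 0 higher and 1 lower and a median of -0.14. That 1 was Tcirg1, the a3 subunit of the pump (-0.28 ± 0.0919, limma adjusted p = 0.742), while the assembly factor Vma21 changed by 0.22 ± 0.116. Tcirg1 was dim, at deposited intensities of 38.8, 9.6 and 33.7 (4 h) against 34.9, 34.5 and 25 (16 h), and 4 h replicate 2 was below the noise limit. These values overlapped, whereas after normalization all 4 h arrays were lower. Vma21 was at 10.57, 10.12 and 10.22 (4 h) against 10.01, 10.18 and 10.07 (16 h), overlapping and highest on 4 h replicate 1.

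Among 14 genes of autophagy initiation and nucleation 11 were detected, with 1 higher and 3 lower and a median of -0.08. Ulk1, the kinase that starts autophagosome formation, had deposited intensities of 110.6, 82.7 and 103.9 (4 h) against 104.5, 104.2 and 99.5 (16 h), which overlapped. After normalization it was at 7.16, 7.21 and 7.17 (4 h) against 7.53, 7.53 and 7.69 (16 h), and every 4 h array was below every 16 h array (-0.40 ± 0.0720, limma unadjusted p = 0.000371, adjusted p = 0.244). Ambra1, a regulator of the Beclin 1 complex, lay the other way, at 8.15, 8.22 and 8.39 (4 h) against 8.01, 7.89 and 7.98 (16 h) (0.29 ± 0.0814, limma adjusted p = 0.624). Of 11 further ATG8 family members and receptors 9 were detected, with 1 higher and 2 lower and a median of -0.08. Gabarapl1 was at 8.51, 8.74 and 8.68 (4 h) against 9.26, 9.14 and 9.35 (16 h), a change of -0.61 ± 0.0867 (limma unadjusted p = 6.49e-05, adjusted p = 0.156), and Gabarapl2 was at 6.76, 6.74 and 6.65 (4 h) against 6.59, 6.52 and 6.47 (16 h) (0.19 ± 0.0691). On the normalized scale the time points overlapped for none of these 4 genes, of which Ulk1 and Gabarapl1 were lower and Ambra1 and Gabarapl2 higher at 4 h. The deposited intensities of Ulk1 and Gabarapl1 overlapped.

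Of 21 genes of the mTORC1 and TFE regulators, some of which act in nutrient sensing at the lysosome, 15 were detected, with 1 higher and 2 lower and a median of -0.02. Rragd, a Rag GTPase, was at 7.68, 7.89 and 7.93 (4 h) against 8.24, 8.20 and 8.12 (16 h) (-0.36 ± 0.0836, limma adjusted p = 0.477), and Rptor, the scaffold of mTORC1, was at 0.21 ± 0.0879 with overlapping time points. Of 4 cystatins, inhibitors of cysteine cathepsins, 2 were detected, and Cst3 was at -0.20 ± 0.0975 (limma adjusted p = 0.919).

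**Figure D5:**
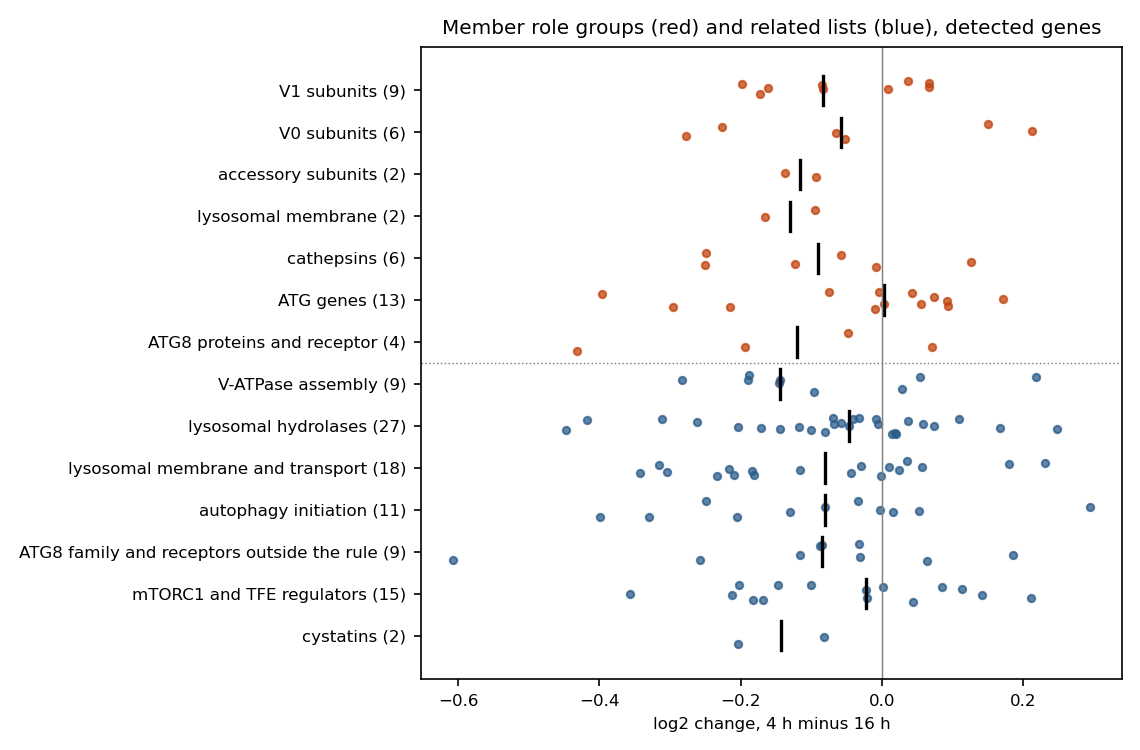
Log2 change (4 h minus 16 h, horizontal axis) of every detected gene in the 7 role groups of members (red) and the 7 related lists (blue), with the number of detected genes in parentheses and a black bar at the median of each list. The lists spread to both sides of 0, and the lowest point, at -0.61, is Gabarapl1.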

How the data were processed

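RNA of 6 samples was reverse-transcribed and analysed on Illumina BeadChips at a genomics centre. The authors deposited 1 table of background-subtracted intensities on a linear scale, not normalized between arrays. The scanner software, slides, detection p-values and the build behind the probes are not given in the sources used here. The members and the related gene lists were chosen with earlier results of these data known.

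In R 4.3.3 with limma 3.58.1, a normexp correction (offset 50), quantile normalization and a log2 transformation were applied. Time point was the only term in lmFit and eBayes, with two-sided tests and Benjamini-Hochberg adjustment across the 45281 probes (threshold 0.05). The noise limit of an array was the 99th percentile of its values below 0 with their sign turned. Adding the offset shrinks the changes of dim probes, and quantile normalization removes changes shared by most transcripts. The number of arrays limits the precision, and an exact two-sided permutation test of 3 against 3 cannot go below p = 0.1. The calculation was tested on simulated data. Symbols were matched to RefSeq names (GRCm38.p6): 27760 probes by symbol, 7994 by synonym and 9527 not at all.

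Genes were named by rule: the 4 markers, Lamp2, Map1lc3a, Map1lc3b, Gabarap and Tfeb, the 3 detected genes with the smallest p in each direction of each larger role group, and the 1 in each direction of each related list. Other members are given by their change alone. Alternatives were other background corrections, normalizations, probe filters and variance models, array weights, the replicate number or the 18S class as a block, all probes of a gene averaged, other noise limits, and leaving out each array. Values within each 18S class were added after seeing the data.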

Additional observations from a re-analysis of the deposited data

How the results depend on the processing

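The 3 arrays per time point limit what could be called, and the offset shrinks the changes of dim probes. Without background correction the changes of Ctsl, Atg7 and Atp6v1c2 were larger but did not pass either (limma adjusted p = 0.751, 0.844 and 0.849). No member probe passed adjustment in any limma fit except with median scaling (3 probes) and without normalization between arrays (10), where 832 and 2308 of all probes did and 20 and 28 member genes reached an unadjusted p under 0.05, against 49.3% and 62.3% of all detected genes. Over all probes, 29 passed without background correction, 2 with cyclic loess, 1 with trended robust variances, and 0 with an offset of 16, with either filter on dim probes, and when any array was left out. Leaving out an array put the members at an unadjusted p under 0.05 between 4 and 11, the median change of all members between -0.082 and -0.031, that of V1 subunits between -0.088 and 0.031, of V0 subunits between -0.062 and -0.011, of accessory subunits between -0.21 and -0.019, of the LAMP genes between -0.17 and -0.092, of cathepsins between -0.12 and 0.0012, of ATG genes between -0.058 and 0.063 and of the ATG8 and receptor group between -0.21 and -0.038. Relative to the shared shift (0.29 with median scaling and 0.38 without normalization), both settings gave medians of -0.025 for all members, 0.0062 for V1 subunits, 0.038 for V0 subunits and -0.015 for the LAMP genes. The median of V1 subunits was -0.037 with array weights, and that of all members -0.0077 within the arrays of high 18S signal.

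Of 530 values (522 for 29 named genes over 18 settings and 8 for 4 genes within the 18S classes), 490 kept direction and side of the threshold, 9 newly passed it and 31 turned in sign. Direction was read after the shared shift was subtracted, and the side of the threshold from the fit before subtraction. Part of this tally was fixed in advance. The probe filters, trended robust variances and the replicate block leave the estimated change as it is, so no sign could turn there. Median scaling and no normalization gave the same values once the shift was subtracted. No named member passed in the main fit, so a value could only stay on that side or newly pass. The 490 thus include Lamp1, Sqstm1, Atp6v1b2 and Atp6v1g2 with median scaling, whose fitted changes were above 0, at 0.24, 0.19, 0.23 and 0.22. The cause of these differences was not tested. After the shared shift was subtracted, Lamp2 was at 0.019, Gabarap at 0.010, Atp6v0e at 0.027, Atp6v1c2 at -0.12, Ctsl at -0.091 and Atg7 at -0.19, both with median scaling and without normalization. Their fitted changes before the subtraction were above 0, at 0.31, 0.30, 0.31, 0.16, 0.20 and 0.10 with median scaling. For the dim probes of Atp6v1c2, Ctsl and Atg7, whose changes the offset shrinks, the values without background correction were 0.27, 0.61 and 0.51, and the same setting gave -0.46 for Atg2a and 0.29 for Atg3. Of the 4 genes at an unadjusted p under 0.05 in limma, Atg2a and Atg16l2 stayed there in 16 of 18 settings, losing it with median scaling and without normalization. Map1lc3b stayed there in 15, losing it in these and without background correction, and Atp6v0a2 in 15, losing it with an offset of 16, the noise-limit filter and trended robust variances. The 15 of Atp6v0a2 include median scaling and no normalization, fits that contain the shared shift. In these, 49.3% and 62.3% of all detected genes were higher at this threshold, so the counts of the 4 genes are not alike. Atp6v1a turned to -0.00097 with cyclic loess and -0.0046 with array weights, Atp6v1e1 to -0.017 with linear scaling, and Ctsd and Atp6v1c1 to 0.092 and -0.023 with the 18S class as a block. Leaving out an array gave ranges of -0.13 to 0.13 for Ctsd, -0.056 to 0.12 for Atp6v1a, -0.051 to 0.10 for Atp6v1c1, -0.0088 to 0.14 for Atp6v1e1, -0.14 to 0.029 for Atp6v0e, -0.19 to 0.013 for Lamp2, -0.13 to 0.019 for Gabarap and -0.021 to 0.16 for Map1lc3a. Of the 21 other named genes, 17 kept their sign but moved by over 1.5 times, namely Atg10 (-0.29 to -0.10), Atg3 (0.066 to 0.30), Atg7 (0.047 to 0.11), Atg9b (0.031 to 0.13), Atp6v0b (-0.40 to -0.10), Atp6v0d1 (-0.34 to -0.12), Atp6v0e2 (0.09 to 0.19), Atp6v1b2 (-0.23 to -0.075), Atp6v1c2 (0.021 to 0.12), Atp6v1d (-0.37 to -0.05), Atp6v1g2 (-0.19 to -0.099), Ctsa (-0.42 to -0.13), Ctsb (-0.20 to -0.055), Ctsz (-0.47 to -0.0051), Lamp1 (-0.27 to -0.091), Map1lc3b (-0.54 to -0.29) and Sqstm1 (-0.39 to -0.095). Other noise limits left 40 to 45 member genes detected.

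With the replicate number as a replicate block, 0 of all probes and 0 member probes passed, and 1 member gene was higher and 4 were lower at an unadjusted p under 0.05, against 6.29% and 6.43% of all detected genes. The numbers were not taken as pairs, because samples of the same number deviated together with correlations of 0.24, 0.17 and -0.47.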

Other observations

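Some genes of these pathways are carried by the array under older symbols that the choice of members did not reach, and their probes were matched through RefSeq synonyms after the values had been seen. Tfeb is present as Tcfeb, with 2 probes that exceeded the noise limit on 0 arrays (-3 to 10.6 intensity units), so no change is given. Apg5l, a further probe for Atg5, was at 9.50, 9.45 and 9.01 (4 h) against 9.19, 8.77 and 9.13 (16 h) on the normalized log2 scale, a change of 0.29 ± 0.149 (SE, limma unadjusted p = 0.0854, adjusted p = 0.920). Its lowest values were on 16 h replicate 2 and 4 h replicate 3, and its change with an array left out is not given. Apg4d, a further probe for Atg4d, had a change of 0.01 ± 0.0916. D2ertd391e, which is Atg13, a subunit of the ULK1 complex, was at 7.58, 7.75 and 7.64 (4 h) against 7.68, 7.98 and 7.88 (16 h) (-0.19 ± 0.0910, limma adjusted p = 0.919), and 9430023l20rik, which is Atg101 of the same complex, had a change of -0.02 ± 0.114. C920004c08rik, matched to Ctse, the aspartic protease of gastric and intestinal epithelium, had deposited intensities of 1007, 682 and 1006 (4 h) against 714, 606 and 490.0 (16 h) and a change of 0.04 ± 0.104. Both probes that carry the symbol Ctse itself were below the noise limit on all arrays. Which of these probes reports the transcript was not tested.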
